A study of Caenorhabditis elegans with 8 samples.

Results

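The major sperm protein (msp) genes of Caenorhabditis elegans were followed through 8 RNA-seq libraries of whole worms, 4 exposed to the insect repellent DEET and 4 to its solvent DMSO. Members were all genes whose symbol is msp followed by a number, which gave 35 of the 46244 gene identifiers in the tables. Of these, 31 were annotated as protein-coding and 4 as pseudogenes. The DEET worms were kept for 24 h with DEET dissolved in DMSO at 0.1 M, a value the labels do not define as stock or final. The DMSO worms were kept for 24 h with 0.1% DMSO. Both groups were started from late L4 larvae, 1000 worms per sample, and belonged to the strain that the labels name for the cuticle collagen gene col-121, without stating the allele or the sex. No group of another strain was compared here. Each sample also carried a pair number, called a batch in the labels, and every batch from 1 to 4 held 1 DEET and 1 DMSO sample. The labels do not say what the members of a batch shared. The 4 samples of a treatment were described as independent biological repeats.

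Major sperm protein is the most abundant protein of nematode sperm. It assembles into the filaments that drive the crawling of the sperm cell, which uses them in place of actin. It is also released from sperm and acts as a hormone on oocytes and on the gonadal sheath, where it triggers oocyte maturation and ovulation. In hermaphrodites the genes are transcribed in developing spermatocytes of the larval gonad, before the germ line turns to making oocytes. The proteins differ from each other at very few positions. How similar the transcripts are was not examined here.

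Sequencing depth was even, at 44437681 to 50295321 counts per library. Ribosomal RNA genes took 5.99% to 12.1% of the counts in DEET libraries and 3.91% to 10.9% in DMSO libraries, with the highest value of each treatment in batch 4. Transcripts of several tissues were present, as a whole-worm sample requires: the muscle myosin gene unc-54 ranged from 153 to 254 TPM (transcript abundance corrected for length and library), the intestinal regulator elt-2 from 7.77 to 11.1 TPM and the synaptic gene unc-64 from 20.2 to 34.4 TPM. Among 11 male-specific genes, 8 did not pass the expression filter, among them the sensory channel genes lov-1 and pkd-2 with means of 0.00226 and 0.0204 TPM. These genes were not picked by the naming rule given below, and lov-1 was the lowest of the list. The genes that passed, her-1, mab-3 and try-5, averaged 1.95, 0.845 and 0.565 TPM.

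The msp genes lie in 4 groups on 2 chromosomes when a gap of more than 300 kb is taken as a border (WBcel235). On chromosome II, 12 members lie between 4785898 and 5200180 and 3 between 5797065 and 5810330. On chromosome IV, 10 members lie between 5055631 and 5316906 and 10 between 9689015 and 10144175. The longer chromosome II group supplied 21.1% of the summed msp TPM, the shorter 4.15%, and the chromosome IV groups 41.5% and 33.3%, in the order given. These shares moved little between libraries; that of the first chromosome II group ran from 19.9% to 22.7%. The annotated length was 384 bp for 28 of the 31 protein-coding members, so levels within this set differ by more than transcript length.

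Expression was spread over many copies. The most abundant member was msp-59 (chromosome IV, 5312728 to 5313111, minus strand). It had 142, 79.7, 118 and 206 TPM in the DEET libraries of batches 1 to 4, against 127, 87.2, 95.1 and 214 TPM in the DMSO libraries. This was 7.33% of the msp total on average. Next came msp-51, 7.06% of the total, with 133, 71.3, 119 and 199 TPM in DEET and 125, 90.2, 85.1 and 211 TPM in DMSO libraries. The third, msp-57, had 128, 68.4, 111 and 186 TPM in DEET and 122, 84.7, 86.7 and 203 TPM in DMSO libraries. In all 3 genes the batch 4 libraries were highest and the batch 2 or batch 3 libraries lowest, in both treatments. These genes were close to each other: msp-59 ranked between 1 and 2 by library, msp-51 between 1 and 3 and msp-57 between 2 and 3. The gene msp-19 ranked 4 in every library, at 112 ± 42.9 TPM in DEET and 114 ± 44 TPM in DMSO worms (SD, n = 4 each). Ranks 5 and 6 were exchanged between msp-113, at 97.9 ± 43.5 TPM in DEET and 97.5 ± 33.8 TPM in DMSO worms, and msp-36, at 95.6 ± 35.8 TPM in DEET and 93.4 ± 34.3 TPM in DMSO worms. These 6 genes made up 38.1% of the msp signal. Between them and the low end, 20 protein-coding members had mean levels over all libraries of 29.8 TPM for msp-3 to 80.4 TPM for msp-76. The order of all 35 members was similar between libraries, with Spearman correlations across members of 0.974 to 0.995 over the 28 pairs of libraries. These include members with almost no counts, which stay at the lowest ranks. Some ranks in the middle moved more, from 13 to 20 for msp-55 and from 17 to 24 for msp-31.

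At the low end, msp-63 (chromosome II, 5797065 to 5797448) had the same annotated length as msp-59 and stood apart from the other full-length copies. It had 3.52, 1.31, 1.99 and 4.33 TPM in DEET libraries, against 2.25, 1.37, 2.15 and 4.51 TPM in DMSO libraries. Its neighbour msp-142, which starts 5797927 on the same chromosome, averaged 35.4 TPM over all libraries. The next lowest protein-coding member with measurable expression was msp-49, with 25.4, 13.0, 18.4 and 43.3 TPM in DEET libraries and 19.7, 15.7, 15.8 and 46.4 TPM in DMSO libraries. One annotated pseudogene, msp-71, also passed the expression filter. It had 2.05, 1.04, 1.20 and 5.03 TPM in DEET libraries and 2.62, 2.01, 1.23 and 5.60 TPM in DMSO libraries. Reads of similar copies cannot be assigned to one member with certainty, so these low levels may hold reads of other copies, and the reverse. The amount was not tested. The ratio of counts to TPM, relative to the median member, ran from 0.853 for msp-45 to 1.25 for msp-53 although both have the same annotated length.

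The other 6 members did not pass the expression filter and were left out of the edgeR tests reported here. The pseudogene msp-42 had 3, 4, 8 and 30 counts in DEET libraries and 4, 7, 7 and 27 counts in DMSO libraries, with both batch 4 libraries above the rest. The gene msp-32 had 1, 0, 0 and 3 counts in DEET libraries and 0 in every DMSO library. The gene msp-74 had 1, 0, 1 and 4 counts in DEET libraries and 0, 0, 1 and 0 in DMSO libraries. The gene msp-58 had 3 counts in DEET batch 3, 3 in DMSO batch 2 and 0 elsewhere. The pseudogene msp-52 had 0 counts in every DEET library and 4, 3, 1 and 1 in DMSO libraries. The pseudogene msp-37 had 0 counts in all 8 libraries. A count of 0 allows up to 3 counts per library, and such limits cover counting error only. Of the protein-coding genes, msp-32, msp-74 and msp-58 have shorter annotated transcripts than the other 28. Another annotated gene overlaps 5 members: msp-33 lies opposite gst-9 and msp-38 opposite dhs-12, while msp-31 shares its strand with aagr-2, msp-45 with srb-13 and msp-37 with dhs-12. The sources used here do not say how the counting treated strand.

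**Figure D1:**
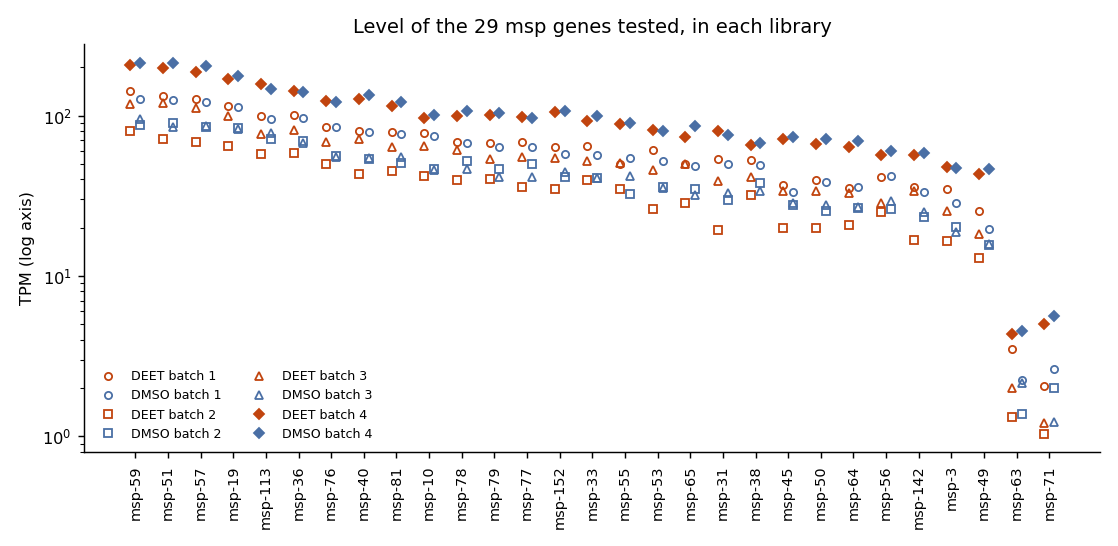
Level of each of the 29 tested msp genes (x axis, in order of mean level) in TPM on a log axis, 1 point per library, with treatment and batch distinguished as in the legend. Most members lie within a band led by msp-59, with msp-63 and the pseudogene msp-71 far below, and within each member the batch 4 libraries are at the top.

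No msp gene rose or fell with DEET by the test, and the summed level of the family overlapped between the treatments. Summed over the 35 members, the level was 1893, 1045, 1588 and 2823 TPM in the DEET libraries of batches 1 to 4, against 1792, 1265, 1271 and 2918 TPM in the DMSO libraries. The DEET mean was 1837 ± 745 TPM and the DMSO mean 1812 ± 778 TPM (SD, n = 4 each), and the groups overlapped over almost their whole range. As a share of all counts, msp genes took 0.0273% to 0.0801% in DEET and 0.0332% to 0.0850% in DMSO libraries. In whole worms, fewer cells of a type and less RNA per cell cannot be told apart. With edgeR, 0 of the 29 tested msp genes passed an adjusted p of 0.05, on a background of 0% of all 15496 genes tested. At an unadjusted p under 0.05 there were 0 msp genes and 45 of all genes, and the lowest unadjusted msp p was 0.646, for msp-71. That fit holds no batch term, so differences between batches enter its error. With the batch as a block, 13 genes (0.0839%) were called, none of them msp, and the lowest unadjusted msp p was 0.167. The blocked fit had 526 of all genes and 0 msp genes at an unadjusted p under 0.05. DESeq2 called 10 genes without the block and 21 with it, again no msp gene; in DESeq2 without the block, the pseudogene msp-52 had an unadjusted p of 0.0406 on its 9 counts. The median msp log2 fold change (DEET over DMSO) was 0.03, with 19 of 29 members above 0, against a median of 0.00 over all tested genes.

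**Figure D2:**
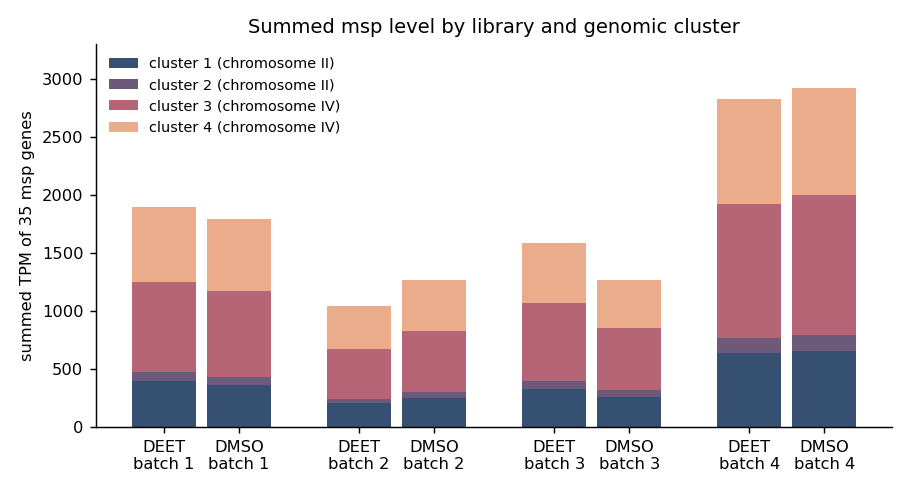
Summed TPM of the 35 msp genes in each library, with DEET left of DMSO in each batch and the bars split by genomic group. Both batch 4 libraries stand at 2823 TPM or more and both batch 2 libraries at 1265 TPM or less, while the split between groups is similar in all libraries.

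The members of smallest unadjusted p had mean differences about as large as, or smaller than, their spread between batches. For msp-71, the log2 ratio of DEET to DMSO was lowest, averaging -0.33 ± 0.32 over the 4 batches (SD, n = 4). For msp-3, which had 34.6, 16.5, 25.3 and 47.7 TPM in DEET and 28.7, 20.3, 18.8 and 46.9 TPM in DMSO libraries, it averaged 0.11 ± 0.32. The ratio of msp-63 averaged 0.10 ± 0.35 and that of msp-10 0.09 ± 0.28. For msp-53, with 60.8, 26.2, 46.0 and 81.3 TPM in DEET and 51.8, 36.1, 35.4 and 79.7 TPM in DMSO libraries, it averaged 0.05 ± 0.37. The median over members depended on which libraries were compared. In fits with no batch term it was -0.26 without the DEET library of batch 4 and 0.38 without the DMSO library of batch 4. It also fell below 0 without the DMSO library of batch 2 (-0.10) or of batch 3 (-0.10). Leaving out 1 library leaves its batch in 1 treatment only, so batch level and DEET cannot be told apart in these shifts. With the block and both libraries of a batch left out, the median was 0.005, 0.125, -0.03 and 0.05 without batch 1, 2, 3 or 4. Under each of these the edgeR test called 0 msp genes.

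Within single batches most members lay on one side of 0, higher with DEET in batches 1 and 3 and lower in batches 2 and 4. In batch 1, 25 of 29 members were higher with DEET, where 50.6% of all tested genes were, and the median msp log2 ratio was 0.08. In batch 2, 28 of 29 were lower with DEET, where 55.8% of all genes were, with a median of -0.31. In batch 3, 25 of 29 were higher with DEET, where 53.3% of all genes were, with a median of 0.30. In batch 4, 22 of 29 were lower with DEET, where 51.4% of all genes were, with a median of -0.05. The summed TPM gave the same directions, with log2 ratios of 0.08, -0.28, 0.32 and -0.05 in batches 1 to 4 and a mean of 0.02 ± 0.25 (SD, n = 4). Each ratio rests on 1 library against 1, so no test was possible and no interaction could be fitted. Counting error alone gives the ratio of a typical member an SE of 0.07, 0.10, 0.09 and 0.06 in batches 1 to 4. Members share libraries and may share reads, so their number does not count as replication.

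The 5 members with the widest spread between batches had the same signs as the msp medians in batches 1 to 3, and differed in sign in batch 4. The ratios of msp-65 were 0.06, -0.31, 0.63 and -0.23 in batches 1 to 4. Those of msp-142 were 0.12, -0.48, 0.43 and -0.02, and those of msp-77 were 0.11, -0.50, 0.40 and 0.02. For msp-31 they were 0.11, -0.61, 0.22 and 0.10, and for msp-53 0.25, -0.46, 0.37 and 0.03. All 5 were lower with DEET in batch 2 and higher in batches 1 and 3, while in batch 4 msp-65 and msp-142 were below 0 and the other 3 above it. The gene msp-56 hardly moved, with ratios of -0.00, -0.07, -0.06 and -0.08. The exception in batch 2 was msp-55, with a ratio of 0.10. The 4 members below 0 in batch 3 were msp-113, msp-56, msp-63 and msp-71, at -0.01, -0.06, -0.13 and -0.07. The 4 members below 0 in batch 1 were msp-64, msp-55, msp-56 and msp-71, and their values were -0.01, -0.11, -0.00 and -0.28.

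Other sperm transcripts shared the signs of the msp genes in batches 1 to 3. Of 41 tested sperm genes with other names, 29 were higher with DEET in batch 1, 34 lower in batch 2 and 35 higher in batch 3. Of all tested genes, 50.6%, 55.8% and 53.3% were. The median log2 ratios of the sperm genes were 0.06, -0.26 and 0.28. Each of these medians rests on 1 library against 1. Counting error alone gives a single typical gene of the list an SE of 0.11 in batch 1, and that of the median was not computed. In batch 4 the median of the sperm genes was 0.06, above 0 where that of msp genes was below. The 21 oocyte and eggshell genes had medians of -0.01, -0.02, -0.03 and 0.22 in batches 1 to 4, and in batch 4 all 21 were higher with DEET, where 48.6% of all tested genes were. The part of these differences in the msp ratios was not tested.

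**Figure D3:**
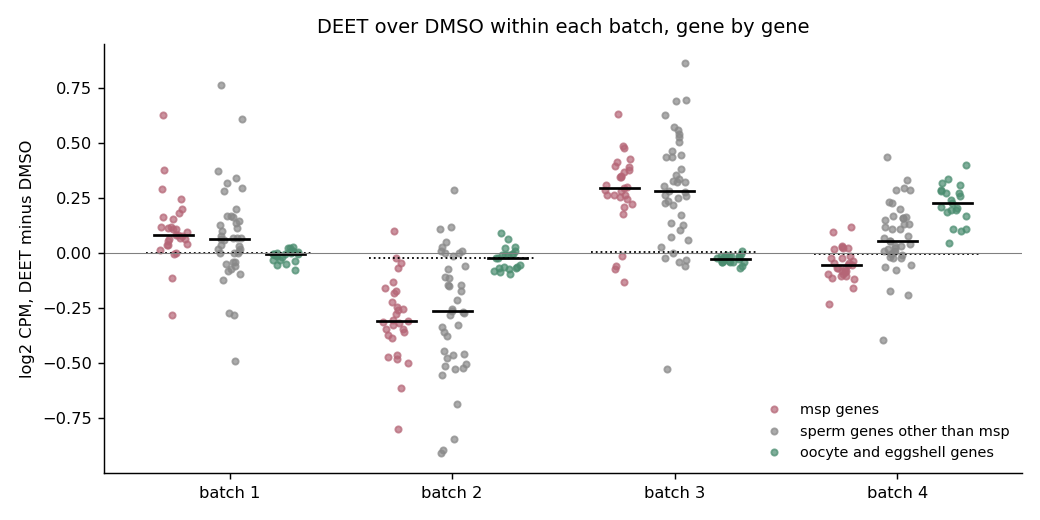
Log2 ratio of DEET to DMSO (difference of log2 CPM, prior count 2) within each batch, 1 point per gene for the 3 lists in the legend; black bars are list medians, dotted lines the median of all tested genes. The msp and other sperm genes lie mostly below 0 in batch 2 and above 0 in batch 3, while oocyte genes stay near 0 in batches 1 to 3 and lie above 0 in batch 4.

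The batches differed in msp level far more than the treatments did. Batch 4 averaged 2870 ± 67.6 TPM in summed msp level, batch 1 1843 ± 71.1, batch 3 1429 ± 224 and batch 2 1155 ± 156 TPM (SD, n = 2 each). Batch 4 was 1.95-fold the mean of the other 3, batch 3 0.731-fold and batch 2 0.564-fold. Batch 1 was 1.01-fold in TPM, a direction that turned to 0.974-fold as a share of all counts. With the treatment as a term, edgeR called a difference between batches for 29 of 29 tested msp genes, against 64.9% of all genes. Leaving out batch 4, it called 18 of 29 between batches 1 to 3, against 19.5% of all genes. The order of the batch means was the same, batch 4 over 1 over 3 over 2, in 28 of the 29 members. The exception was msp-71, with batch 3 lowest. The share of all tested genes in this order was not computed. The step of batch 3 over batch 2 rested mostly on the DEET libraries. There the summed msp level was 1588 against 1045 TPM, while in the DMSO libraries it was 1271 against 1265 TPM. Some members had the reverse step in DMSO, such as msp-51 with 85.1 TPM in batch 3 and 90.2 TPM in batch 2.

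In batch 4, all 29 tested members rose against the mean of the other batches, where 36.4% of all genes did. Their median log2 fold change was 1.01, and individual values ran from 0.73 for msp-38 to 1.70 for msp-71; the median of all tested genes was 0.08. Both batch 4 libraries were above the other 6 in 29 of 29 members, as they were in 33.6% of all genes. The leading member msp-59 rose 2.00-fold (log2 1.00, SE 0.07, adjusted p = 1.27e-06). The clearest by p was msp-56, with 56.4 TPM in DEET and 59.9 TPM in DMSO worms of batch 4, where the other DEET libraries had 25.2 to 41.4 TPM and the other DMSO libraries 26.3 to 41.9 TPM. Its log2 fold change was 0.90 (SE 0.06, adjusted p = 9.64e-07). Also among the smallest p were msp-81 at 0.98 (SE 0.07), msp-55 at 1.05 (SE 0.07) and msp-152 at 1.14 (SE 0.08). The SE restates the p of the edgeR test. The weakest evidence was for msp-65 (1.01, SE 0.15, adjusted p = 0.000728).

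Members on chromosome II had the higher values in batch 4. The 11 tested protein-coding members on chromosome II had a median log2 fold change of 1.14 (range 1.00 to 1.36) and the 17 on chromosome IV one of 0.96 (range 0.73 to 1.05). The last group on chromosome IV was lowest, with a median of 0.91. In batch 2, the chromosome II members also had the larger difference, with a median of -0.86 against -0.71 on chromosome IV. The split was chosen after the values were seen and was not tested. The ranges overlap between msp-33, at 1.00 on chromosome II, and msp-55, at 1.05 on chromosome IV.

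In batch 2, 28 of 29 members fell against the mean of the other batches, where 22.9% of all genes did. Their median log2 fold change was -0.79. The largest fall past the threshold was that of msp-63 (-1.13, SE 0.27, adjusted p = 0.00656), and the smallest that of msp-38 (-0.54, SE 0.10, adjusted p = 0.00192). The member not called was msp-71, at -0.71 (SE 0.27, adjusted p = 0.0575). In batch 3, 18 of 29 fell, where 12.1% of all genes did, with a median of -0.35. This count depended on single libraries, and so did the count over all tested genes. Both were lowest without the DMSO library of batch 3. In batch 1, 0 of 29 were called in either direction by edgeR, where 5.76% of all genes were. An unadjusted p under 0.05 was found for 4 of 29, and for 3907 of all 15496 genes tested. The nearest to the adjusted threshold was msp-56 at 0.24 (SE 0.06, adjusted p = 0.0578). It passed that threshold with limma on log2(TPM + 1), without the filter and without ribosomal RNA genes.

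**Figure D4:**
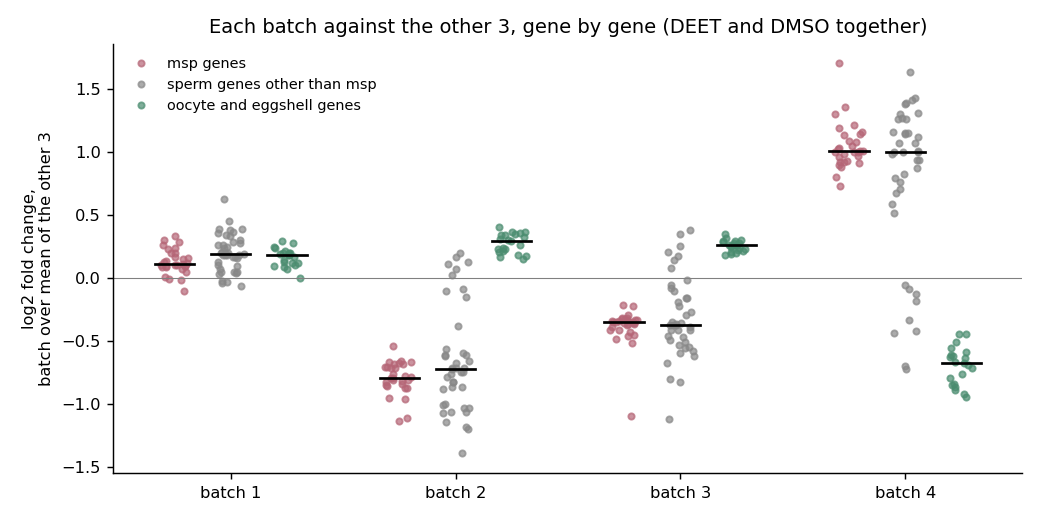
Log2 fold change of each batch over the mean of the other 3 batches (edgeR, DEET and DMSO together), 1 point per gene for the 3 lists in the legend, with black bars at the list medians. The msp genes lie at 0.73 to 1.70 in batch 4 and all below 0 in batches 2 and 3, while the 21 oocyte genes take the opposite sides.

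Genes of sperm function other than msp followed the msp genes in batch 4. Of 41 tested, 31 rose, where 36.4% of all genes did, and 5 fell, where 29.8% did, with a median log2 fold change of 1.00. The gene ssq-4, of a sperm-specific family, had 40.1 TPM in DEET and 37.3 TPM in DMSO worms of batch 4, against 14.7 to 27.1 TPM in the other DEET and 17 to 24.4 TPM in the other DMSO libraries. The Argonaute gene alg-3, which acts in spermatogenesis, had 8.18 and 8.22 TPM in DEET and DMSO worms of batch 4, against at most 5.65 TPM in the other libraries (log2 fold change 1.15, adjusted p = 1.89e-06). The sperm phosphatase genes gsp-3 and gsp-4, named after their values were seen, rose by 1.07 and 1.01 on the log2 scale. The 5 that fell were fog-1, cpb-1, spe-39, spe-44 and zipt-7.1, at -0.72, -0.70, -0.44, -0.42 and -0.33. They include the RNA-binding genes fog-1 and cpb-1, the transcription factor gene spe-44 and a trafficking gene, spe-39, that is also used outside sperm. Of these, fog-1 and spe-44 were named after their values were seen. The summed level of the list was 1.24-fold that of batches 1 to 3, less than for its median gene; the 3 most abundant genes of the list, zipt-7.1, spe-39 and cpb-1, were among those that fell.

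The MSP domain is also found in proteins that do not bear the msp name. Of 16 tested genes, 13 rose in batch 4 (36.4% of all genes) and 1 fell (29.8% of all genes), with a median log2 fold change of 1.04. The sperm genes msd-1, msd-4 and ssp-9 rose by 1.06, 1.37 and 0.93 on the log2 scale. Of these, ssp-9 had 95.8 TPM in DEET and 95.5 TPM in DMSO worms of batch 4, against 34.3 to 67.1 TPM in the other DEET and 37.3 to 70.1 TPM in the other DMSO libraries. The single member that fell was vpr-1 (-0.27, adjusted p = 0.000351), whose protein carries an MSP domain but is made in many tissues. In batch 2, 12 of the 16 fell, where 22.9% of all genes did, and 1, vpr-1, rose, where 20.7% did. In batch 3, 3 of the 16 fell, where 12.1% of all genes did, and 0 rose, where 14.1% did, with a median of -0.28. The gene msd-3 had 0 counts throughout.

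Genes through which oocytes and sheath cells receive the MSP signal mostly had the opposite sign in batch 4. Of 22 tested, 12 fell, where 29.8% of all genes did, and 5 rose, where 36.4% did, with a median of -0.32. The Eph receptor gene vab-1, whose product binds MSP on oocytes, fell by 0.70, and mpk-1, the gene of a MAP kinase activated in maturing oocytes, by 0.61. The nuclear transport gene ran-1, the most abundant of the list, fell by 0.36. The zinc-finger genes oma-1 and oma-2, required for oocyte maturation, fell by 0.80 and 0.78. For oma-2 the levels were 249 TPM in DEET and 208 TPM in DMSO worms of batch 4, against 373 to 403 TPM in the other DEET and 381 to 413 TPM in the other DMSO libraries. The 5 that rose were itr-1, kin-1, unc-43, lfe-2 and acy-4, at 0.20 to 0.34, named after their values were seen; itr-1, the IP3 receptor gene, and lfe-2 act in contraction of the spermatheca and sheath, and acy-4 is an adenylate cyclase gene of the sheath. The gene for the sheath homeobox protein ceh-18 had a value of 0.09 and was not called. The genes vab-1 and ceh-18 were also chosen after their values were seen.

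Oocyte and eggshell transcripts moved against the msp genes in every batch contrast but that of batch 1. In batch 4, 21 of 21 fell, where 29.8% of all genes did, with a median of -0.68. The chitin-binding eggshell gene cbd-1 had 452 TPM in DEET and 376 TPM in DMSO worms of batch 4, against 782 to 797 TPM in the other DEET and 792 to 834 TPM in the other DMSO libraries. The oocyte regulator lin-41 fell by 0.89, the eggshell genes perm-4 and perm-2 by 0.69 and 0.59, and the maternal zinc-finger gene pos-1 by 0.61. In batches 2 and 3, where msp genes were low, 21 of 21 rose in each, with medians of 0.30 and 0.26; of all genes, 20.7% rose in batch 2 and 14.1% in batch 3. Yolk protein genes, transcribed in the adult intestine, had the same sides: 6 of 6 fell in batch 4 (29.8% of all genes), with a median of -1.05, and 6 of 6 rose in batch 2 (20.7% of all genes), with a median of 0.52. Among them vit-1 had 189 TPM in DEET and 175 TPM in DMSO worms of batch 4, against 442 to 626 TPM in the other DEET and 441 to 635 TPM in the other DMSO libraries. The other vit genes covered a wide range in batch 4, with log2 fold changes of -2.19 for vit-4, -1.46 for vit-3, -0.64 for vit-6, -0.55 for vit-5 and -0.26 for vit-2. Of 14 early zygotic genes, 2 passed the filter, ref-1 and vet-2, and both fell in batch 4, by 0.43 and 0.42; the highest of those not tested, end-3, averaged 0.359 TPM.

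Males make sperm throughout adult life, so their transcripts were set beside the msp level. The summed TPM of the 11 male-specific genes was 2.30 to 4.33 in DEET and 2.73 to 6.56 in DMSO libraries. The 3 genes that passed the filter were her-1, mab-3 and try-5. In batch 4 the seminal protease gene try-5 was called higher, by 0.75 (adjusted p = 0.0386), with 0.595 TPM in DEET and 1.02 TPM in DMSO worms. The other DEET libraries had 0.386 to 0.514 TPM of try-5 and the other DMSO libraries 0.355 to 0.616 TPM. Only the DMSO library of batch 4 was thus above all libraries of the other batches, and the level is low. The genes her-1 and mab-3, at 0.81 and -0.23, were not called. The part of male transcripts, of oocyte and yolk transcripts and of the batch itself in the msp differences was not tested. Ribosomal RNA was also highest in batch 4; with those genes left out of the TPM, batch 4 was 1.98-fold the mean summed msp level of the other batches.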

How the data were processed

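Polyadenylated RNA of whole worms was sequenced, per the labels' protocols. The submitters' processing notes list Salmon, DESeq2 and the build WBcel235; no version is given in the sources used here. The authors deposited whole-number counts per gene, not normalized, and TPM values for the same 8 libraries and 46244 identifiers. Salmon divides reads of similar transcripts by a model, which bears on single msp genes more than on their sum. Of the identifiers, 46177 matched 1 gene of the Ensembl annotation, and 64 matched none. The symbols of 4 msp pseudogenes came from the RefSeq gene table; a symbol that Ensembl gives to more than 1 gene was replaced by the RefSeq one.

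Counts were tested with edgeR 4.0.16 in R 4.3.3 (quasi-likelihood, TMM, default filter by treatment, robust, two-sided, Benjamini-Hochberg over all 15496 genes tested, threshold 0.05). DEET was set against DMSO with no covariate. Batches were compared with the treatment as a term, by an F test and by each batch against the mean of the other 3, over 2 libraries a batch. Every adjusted p is from these fits unless another tool is named. Ratios within a batch subtract log2 CPM values computed at a prior count of 2. Alternatives used DESeq2 1.42.0, limma 3.58.1 on log2(TPM + 1) or log2(TPM + 0.1), other scaling, no filter, the batch as a block, and leaving out libraries. The scripts were tested on simulated data. There the batch F test recovered most changed genes, with somewhat more false calls than its threshold allows. No source says that samples of different batches came from separate animals or cultures beyond calling them independent biological repeats.

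The labels pair DEET and DMSO samples by batch. Deviations from the group means correlated within a pair at 0.43, 0.71, 0.56 and 0.90 for batches 1 to 4, each the highest with its own number. The lowest chi-square per gene between libraries of a group was 14.3, so none was counted as a repeat.

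The members, the lists and the rule for naming genes were chosen with earlier results of these data known. The rule took the 6 highest and 3 lowest members by level, the 5 of smallest unadjusted p in each of the 2 tests, the 5 of widest spread between batch ratios, and from each list the 3 highest genes and up to 2 of smallest p. No sequences are given. Leaving out batch 4, restricting the batch test to batches 1 to 3 and leaving out ribosomal RNA genes were chosen after seeing the data.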

Additional observations from a re-analysis of the deposited data

Results flagged for a closer look

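The level of msp-49 in the DMSO group had 1 library far from the others. It had 46.4 TPM in batch 4, against 15.7 to 19.7 TPM in batches 1 to 3, and the gap took 0.868 of the group's range; this is past Dixon's critical value for 4 samples. The gene had 43.3 TPM in the DEET library of the same batch. Of 42 groups of 4 libraries examined, chance flags about 1 in 20.

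The difference between the DEET and the DMSO library in msp level had opposite signs in 2 batches. The median log2 ratio of DEET to DMSO was -0.31 in batch 2 and 0.30 in batch 3 (-0.307 and 0.297), with 28 of 29 members below 0 in batch 2 and 25 of 29 above 0 in batch 3. The difference was not tested, since each batch holds 1 library per treatment.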

How the results depend on the processing

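No msp gene was called between DEET and DMSO under any alternative run. Over all genes, where edgeR called 0, the count was 13 with the replicate block, 10 with DESeq2, 21 with DESeq2 and the block, 3 with RLE scaling, 3 with no filter, 3 with limma on log2(TPM + 0.1), 7 with limma on log2(TPM + 1) and the block, 4 without batch 4, and, with the block, 13, 11, 12 and 16 without batch 1, 2, 3 or 4. Leaving out 1 library gave 0 to 3. The median msp log2 fold change was 0.02 to 0.05 under the other tools and scalings with all libraries. The block changed no msp call.

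Between batches, leaving out 1 library gave 8238 to 9823 genes and 27 to 29 msp genes. Batches 1 to 3 alone gave 2992 and 18; the 11 msp genes then no longer called were msp-19, msp-45, msp-51, msp-53, msp-57, msp-63, msp-65, msp-71, msp-77, msp-78 and msp-142. For batch 1 the count of 893 became 1542 with no filter, 384 with limma on log2(TPM + 1) and 347 on log2(TPM + 0.1), and 126 to 3247 without 1 library. For msp it was 1 (msp-56) under those 3, without ribosomal RNA genes and with no treatment term, and 0 to 2 without 1 library. Without 1 library, batch 2 gave 2951 to 7393 genes and 24 to 28 msp genes, batch 3 313 to 5047 and 1 to 25, and batch 4 8182 to 10270 and 29 to 29. As a share of all counts, the summed msp level of batch 1 was 0.974 of the other batches, where TPM gave 1.01, and that of batch 4 was 2.12-fold, where TPM gave 1.95-fold. The causes were not tested.

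Each batch holds 2 libraries, so without one of them the lone sample is assumed to vary like the others. Ratios within a batch have no replicate. Similar copies may share reads, and their division among members is a model's. Members with at most 30 counts in any library entered only DESeq2 and, apart from msp-37, the fit with no filter.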
